A study of Catharus ustulatus with 19 samples.

Results

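Females were set against males among the 10 coastal birds in a series of 19 Swainson's thrushes (Catharus ustulatus). The birds were taken by their labels, as all those of the coastal ecotype. The 3 coastal females were y57 and y66, labelled non-migratory, and y64, labelled migratory. The 7 coastal males were y53, y62, y68 and y69, labelled non-migratory, and y52, y60 and y61, labelled migratory. The series holds no other female; its remaining 9 birds were inland males, 4 non-migratory and 5 migratory, and they serve here as birds that took no part in the comparison. Each sample was 1 captive bird, and the RNA came from a block of brain holding the hypothalamus and the optic chiasma. Day length was shifted weekly to follow the season, and no other treatment is labelled. The labels give no age.

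In birds the sex chromosomes are Z and W. Males carry 2 copies of Z, and females carry 1 copy of Z and 1 of W. Birds are not known to silence or boost a whole Z chromosome as mammals do with the X, and the dosage of Z genes is adjusted, where it is, gene by gene. If the output of a Z gene followed its copy number, 1 copy against 2 would give a difference of -1 on the log2 scale. A gene whose dosage is fully adjusted would give 0. The hypothalamus itself controls reproduction, feeding and seasonal state, and receives sex steroids.

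The deposited table gives 11727 genes with values on a log scale, between 20.38 and 35.98 in the 19 birds. No source names the base of the logarithm, and log2 was assumed. Each column had a median of 28.05, so higher and lower are relative to a bird's other genes. The depth of the samples is unknown. The genes carry ENSFALG identifiers, which the table pairs with no names, and 0 of them matched the reference table of 19631 genes. Which of them lie on Z or W was therefore not read here, nor could the tissue be checked against marker genes.

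Most of the genes called between coastal females and coastal males were lower in females. With migration status as a covariate, 341 of the 11727 genes (2.91%) were called lower in females and 35 (0.298%) higher, at an adjusted p under 0.05 by limma (smallest adjusted p = 1.94e-05). Together they made up 3.21% of the genes tested. The lower genes fell to a median level of 27.26 log2 in coastal females, against 28.09 in coastal males and 28.08 in inland males. Every female lay below every coastal male in 328 of the 341 (96.2%), a separation that the call itself favours. Over all genes, called or not, the same separation was seen in 478 (4.08%) with the females below and in 291 (2.48%) with the females above.

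The 341 lower genes had a median difference of -0.82 log2 (1.76-fold), quartiles of -0.96 and -0.63, and a full range of -1.90 to -0.29. Between -1.2 and -0.8 lay 152 of them (44.6%), between -0.8 and -0.3 another 164 (48.1%), and 24 lay under -1.2. Their SD across genes was 0.28 log2, against a median standard error of 0.10 log2 for a single gene. That SD takes in 42 imprecise genes (standard errors from 0.164 log2), among which none above -0.7 log2 was called. Their median was -1.21 log2. From the most precise genes downward, the other 3 of 4 equal parts by standard error had medians of -0.74, -0.76 and -0.79 log2. The spread within each sex was alike in these genes, with a median SD between birds of 0.13 log2 in females and 0.13 log2 in males. The median difference over all 11727 genes was 0.02 log2.

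Set against the value for 1 copy of Z, the 95% interval held -1 in 185 of the 341 lower genes (54.3%). It lay wholly above -1, at a smaller difference, in 150 genes (44.0%) and wholly below -1 in 6 (1.76%). These counts depend on the base of the logarithm. If the deposited values were natural logs, the interval would hold -1 in 183 genes, lie above it in 52 and below it in 106. Genes with a small difference are less often called, so the called genes do not give the lower end of the distribution.

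**Figure D1:**
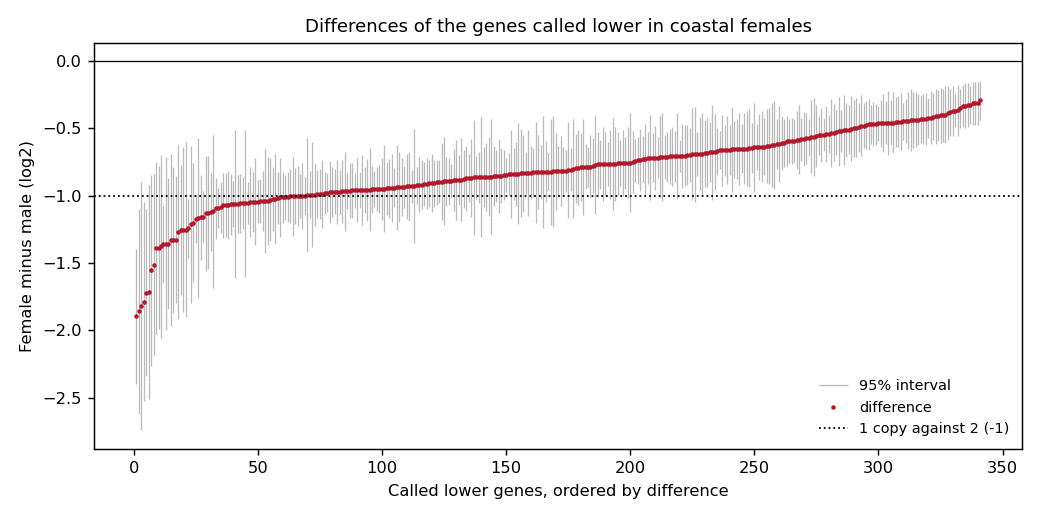
Female minus male difference of the 341 genes called lower in coastal females (y axis, log2), ordered along the x axis from the largest difference to the smallest; points are limma estimates and grey bars their 95% intervals. The dotted line marks -1, the value for 1 copy against 2, which 185 intervals hold.

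The asymmetry was also counted over all genes, the called genes included. Over all genes, 524 were lower in females by more than 0.5 log2 and 249 were higher by as much. Between 0.7 and 1.1 log2, 264 were lower and 89 higher. Beyond 1 log2, 98 were lower and 28 higher. At an unadjusted limma p under 0.05, whatever the size, the sides were nearer to even, with 838 genes (7.15%) lower and 703 (5.99%) higher. The excess of large differences lay largely in the called genes. Between -1 and -0.9 log2, 53 of 64 genes were called, and between 0.9 and 1 log2, 4 of 20. Between -0.9 and -0.8 log2, 54 of 72 were called, and between 0.8 and 0.9 log2, 1 of 19. Most genes lay near 0, with 8565 (73.0%) within 0.2 log2 of it, and for 7973 genes the 95% interval lay within 0.5 log2 of 0.

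Beyond 0.5 log2, the excess of lower genes stood out in all but the least precise genes. The genes were divided by standard error into 4 equal parts. The most precise part (2932 genes, standard errors up to 0.0841 log2) held 79 genes lower in females by more than 0.5 log2 and 1 gene higher by as much. The next part held 90 lower and 1 higher, and the third part 98 lower and 17 higher. In the most precise part alone, among genes lower by more than 0.3 log2, steps of 0.1 were fullest just short of -1. There 23 lay between -1 and -0.9 and 15 between -0.9 and -0.8, against 8 between -1.1 and -1 and 1 past -1.1. Many were smaller: 13 lay between -0.8 and -0.7, 8 between -0.7 and -0.6, 11 between -0.6 and -0.5, 15 between -0.5 and -0.4 and 12 between -0.4 and -0.3. Nearer to 0, 41 lay between -0.3 and -0.2, of which 1 was called. The next part by standard error did not repeat this peak. It held 18 genes between -1.1 and -1, 18 between -1 and -0.9, and 34 between -0.5 and -0.4, its fullest step past -0.3. The third part held 9 between -1 and -0.9 and 71 between -0.4 and -0.3. Over all genes no such peak stood near -1. They numbered 64 between -1 and -0.9, 72 between -0.9 and -0.8 and 105 between -0.7 and -0.6. The median of the genes called lower in the most precise part was -0.74 log2. In the least precise part (standard errors from 0.164 log2), 257 genes were lower by more than 0.5 log2 and 230 higher, nearly even at that cut. Its called genes were not even, with 42 lower and 5 higher.

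**Figure D2:**
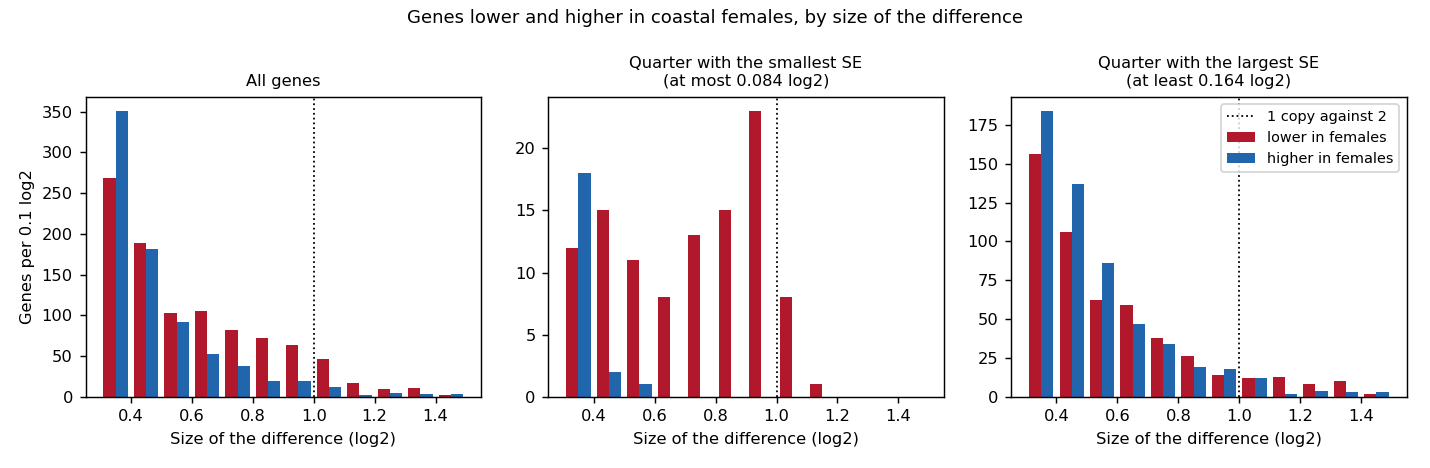
Number of genes (y axis) by size of the female minus male difference (x axis, log2, steps of 0.1 from 0.3), with genes lower in females in red and genes higher in females in blue; the dotted line marks a size of 1. In the most precise part the red bars peak between 0.9 and 1, at 23 genes, where no blue bar stands. In the least precise part blue stands higher between 0.3 and 0.6, and red stands higher between 0.6 and 0.9 and between 1.1 and 1.4. Genes past 1.5 and the middle parts by standard error, which showed no such peak, are not drawn.

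A mixture of 3 classes was also fitted to the differences of all 11727 genes, with each gene's standard error and without a call threshold. A centre class held 94.5% of genes at 0.03 log2. A lower class of 164 genes (1.40%) was centred on -0.93 log2 (1.91-fold). Its own spread ended at 0.01 log2, the lowest the fit allowed, so in this fit the genes within it varied no more than their standard errors. That spread was 0.05 log2 without female y57 and also without male y53, and 0.21 log2 in October birds alone. The third class of 484 genes (4.13%) was broad, centred on -0.47 log2 with an SD of 0.24 log2. No class settled on the higher side in this fit; in October birds alone the third class did, with 426 genes centred on 0.35 log2. With 2 classes, the lower class took 557 genes (4.75%) at -0.66 log2 with an SD of 0.25 log2. The number of classes was a setting of the fit, and the centre and spread of the lower class moved with it. Read as natural logs, the centre of -0.93 would be -1.35 log2.

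The lower genes were found at every level of expression. From the lowest to the highest of 4 parts by mean level, 75, 103, 103 and 60 genes were called lower, or 2.56%, 3.51%, 3.51% and 2.05% of each part. Their median differences in the same order were -0.82, -0.83, -0.72 and -0.83 log2. The sizes therefore followed no steady trend with level.

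Every bird was then read over genes called without it. For a female, the genes were those called lower in a fit of the other 9 coastal birds, and her values were set against the coastal males of her own status. Female y57 stood at a median of -0.82 log2 over 274 genes, y64 at -0.81 over 245 and y66 at -0.75 over 277. Female y57 was below the males in 272 of her genes (99.3%), y64 in 244 (99.6%) and y66 in 271 (97.8%). The 7 coastal males, treated the same way, stood between -0.03 and 0.01 log2 over 291 to 326 genes. The 9 inland males stood between -0.04 and 0.00 log2 over the 341 genes. The medians of females and males did not overlap, so none of the 19 birds went against its labelled sex in these genes. Set against the inland males of their status, which had no part in choosing the genes, the females stood at -0.81 (y57), -0.77 (y64) and -0.72 log2 (y66).

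**Figure D3:**
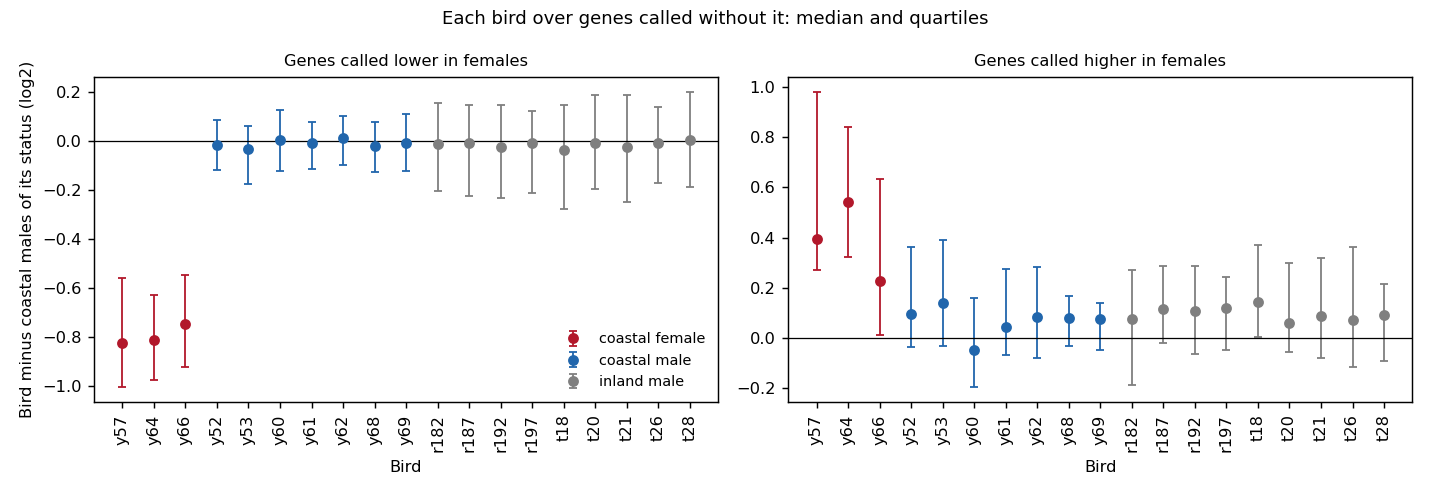
Median (point) and quartiles (bars) of each bird's difference from the coastal males of its migration status (y axis, log2), over genes called lower (left) or higher (right) in females without that bird; coastal females are red, coastal males blue and inland males grey. Over the lower genes the females sit between -0.82 and -0.75 and all males between -0.04 and 0.01; over the higher genes the females sit between 0.23 and 0.54 and the males between -0.05 and 0.14.

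The size of the difference varied from gene to gene in a way that recurred in the other status. Genes were called lower in the non-migratory birds alone (2 females, 4 males) and then read in the migratory birds, none of which had a part in that fit. Female y64 was below the mean of the 3 migratory males in 186 of these genes, which is all but 1 (99.5%). Divided into 3 parts by size in non-migratory birds, the genes of the first (63 genes, median -1.04 log2) stood at -0.96 log2 in y64 against the migratory males. The second (62 genes, median -0.89) stood at -0.94 log2. The third (62 genes, median -0.68) stood at -0.66 log2. The quartiles of y64 ran from -1.1 to -0.81 in the first, -1.08 to -0.81 in the second and -0.79 to -0.55 in the third, so the first and second overlapped almost wholly and the third lay higher. Across these genes, as a description, the sizes in the 2 statuses had a Pearson r of 0.52 and a Spearman rho of 0.51. Genes are not independent replicates; no library was shared between the statuses, but each point shares its gene's level and precision.

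The sex difference was then compared between the statuses. The 341 lower and 35 higher genes were called over both statuses together, which favours genes with a like difference in each, so their medians describe the called genes and do not test the statuses against each other. Over the lower genes the migratory female stood at a median of -0.81 log2 from the migratory males, and the non-migratory females at -0.79 log2 from the non-migratory males. Over the 35 higher genes the medians were 0.52 log2 in migratory and 0.50 log2 in non-migratory birds. No gene was called for an interaction of sex with status (0%; smallest limma adjusted p = 0.44). The unadjusted limma p was under 0.05 in 636 of the 11727 genes (5.42%), close to the share that this cut takes with no interaction. Without the trend and robust settings limma also called 0. With 1 migratory female the interaction was imprecise, its 95% interval lying within 1 log2 of 0 for 8388 genes (71.5%). The smallest p-value in each direction of the interaction belonged to ENSFALG00000005908 (negative) and ENSFALG00000000992 (positive). ENSFALG00000005908 was at 28.79 log2 in the migratory female, against 29.72 ± 0.18 (SD, n = 3) in migratory males, and at 29.32 and 29.43 in the non-migratory females, against 29.02 ± 0.15 (SD, n = 4) in non-migratory males. ENSFALG00000000992 was at 27.26 log2 in the migratory female, against 24.84 ± 0.35 (SD, n = 3) in migratory males, and at 26.19 and 26.13 in the non-migratory females, against 26.47 ± 0.31 (SD, n = 4) in non-migratory males. Inland males ranged more widely in this gene, from 23.45 to 26.58 log2, below the migratory female. In ENSFALG00000005908 they ranged from 28.5 to 29.37 log2, around her value.

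The clearest single case of the lower genes was ENSFALG00000007348, which had the smallest p-value. It stood at 28.51, 28.56 and 28.64 log2 in the females, against a lowest value of 29.44, a median of 29.47 and a highest of 29.61 in the 7 coastal males. The sexes were far apart and the birds of each sex close together. The difference was -0.93 ± 0.06 log2 (SE), or 1.90-fold lower in females, with a 95% interval of -1.05 to -0.81 (limma adjusted p = 1.94e-05). The 9 inland males ranged from 29.45 to 29.73 log2, with the coastal males and above all females.

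The gene with the largest difference behaved otherwise. ENSFALG00000002220 stood at 25.46, 25.47 and 25.76 log2 in the females, against a lowest value of 26.48, a median of 27.60 and a highest of 27.97 in the coastal males. The difference was -1.90 ± 0.23 log2 (SE), or 3.72-fold lower in females, with a 95% interval of -2.40 to -1.39 (limma adjusted p = 0.000528), wholly past the value for 1 copy. Its coastal males were spread over more than 1 log2, with migratory male y60 the lowest. The 9 inland males ranged from 25.48 to 27.00 log2 with a median of 26.36, and so overlapped the females. In October birds alone the difference was -1.40 log2 and was not called (limma adjusted p = 0.0900).

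**Figure D4:**
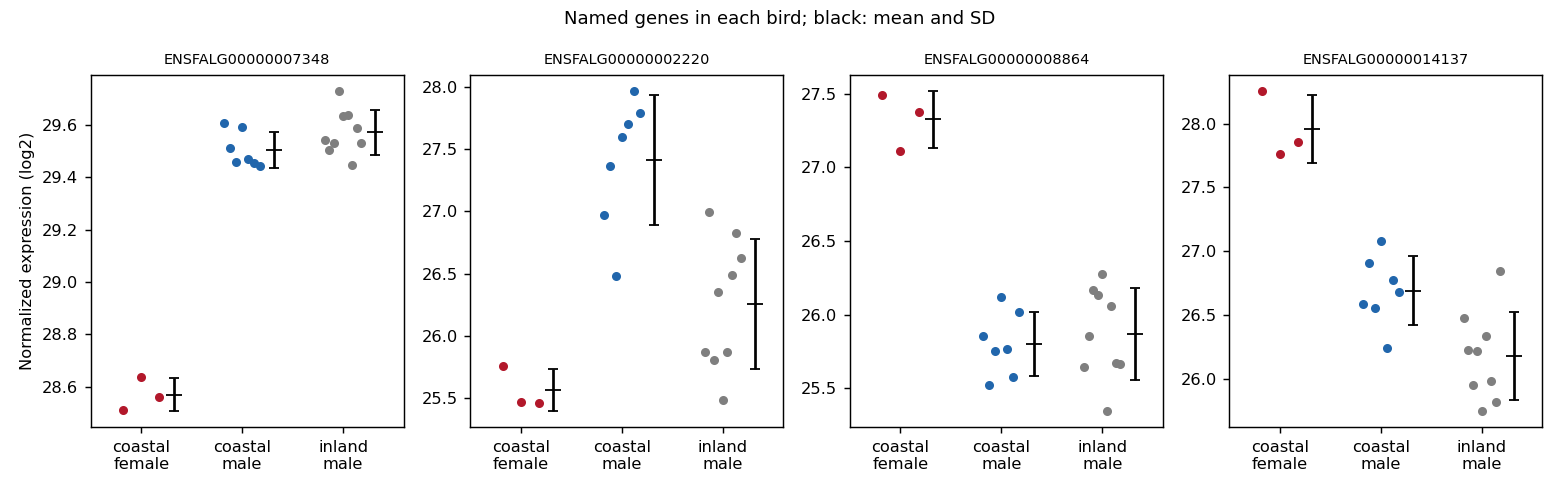
Normalized expression (y axis, log2) of the 4 named genes in each coastal female, coastal male and inland male; coloured points are birds and black marks the mean and SD of the group. The 4 genes were chosen among those whose females lie clear of the coastal males. In ENSFALG00000002220 alone the inland males, at 25.48 to 27.00 log2, reach down to the females.

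Genes higher in females were fewer and their sizes more scattered. The 35 called genes had a median difference of 0.55 log2 (1.47-fold), quartiles of 0.35 and 0.77, and a range of 0.23 to 1.53. Under 0.5 log2 lay 17 of them, from 0.5 to 1 another 14, and over 1 only 4. In 33 of the 35 every female lay above every coastal male, a separation that the call itself favours. Over all 11727 genes, called or not, it was seen in 291 (2.48%). The count turned on single females: it was 12 without y64 and 15 without y57. Over genes called without her, y64 stood at a median of 0.54 log2 above the males of her status (12 genes), y57 at 0.39 (15 genes) and y66 at 0.23 (33 genes). The coastal males, read the same way, stood between -0.05 and 0.14 log2 and the inland males between 0.06 and 0.14. Against inland males the medians of the females were 0.56 (y64), 0.35 (y57) and 0.07 log2 (y66), so for y66 little of the difference was left.

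The higher gene with the smallest p-value was ENSFALG00000008864. It stood at 27.11, 27.38 and 27.49 log2 in the females, against a lowest value of 25.52, a median of 25.77 and a highest of 26.12 in the coastal males. It was higher in females by 1.53 ± 0.16 log2 (SE, 2.88-fold; limma adjusted p = 0.000183), which was also the largest difference among the called higher genes. The inland males ranged from 25.34 to 26.28 log2, clear of the females. Next in size was ENSFALG00000014137, at 27.76, 27.85 and 28.26 log2 in the females, against a lowest value of 26.24, a median of 26.68 and a highest of 27.08 in the coastal males. Its difference was 1.26 ± 0.18 log2 (SE, 2.40-fold; limma adjusted p = 0.00166). Its inland males ranged from 25.75 to 26.85 log2 and also lay below all females.

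Sex overlapped with the day and the hour of collection. All 3 females were taken on the second day of a month's collection (y66 on 8 August, y57 and y64 on 4 October), and of the 7 males only y53 and y61 were. Female y57 was the only non-migratory coastal bird taken in October, so the males of her status were all August birds. The females were taken 7.55 (y57), 8.57 (y64) and 2.65 hours (y66) after lights on, and the males between 2.5 and 7.07 hours. With the day added to the model, 189 genes were called lower and 11 higher by limma. All 189 were among the 341, and 9 of the 11 were among the 35, in fits that share all 10 birds. All 341 kept a difference under 0, with a median of -0.80 log2. The median standard error was 0.15 log2 in that fit and 0.11 log2 without the day. Against the coastal male of the same day, the 341 lower genes, which these birds had a part in choosing, stood at a median of -0.74 log2 in y66, -0.81 in y57 and -0.81 in y64. Male y61 served for both y57 and y64, so their values are not separate. He was migratory and y57 was not, so her value also crosses status. Among the 9 inland males, where no female is involved, the second day minus the first was 0.00 log2 at the median over the lower genes and 0.01 over the higher genes. With the hour added, 315 genes were called lower and 33 higher. In the August birds alone (1 female, 4 males) limma called 0 genes (smallest adjusted p = 0.0558; at an unadjusted p under 0.05, 744 lower and 534 higher). October birds (2 females, 3 males) gave 244 genes called lower and 56 higher.

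Across all genes, the females ranked highest on the leading pattern of the coastal birds, with male y53 next to them. The leading principal component of the 10 birds took 22.5% of their variance, and the females lay highest on it, at 14.3 (y57), 22.2 (y64) and 14.4 (y66). The males lay between -27.1 and 8.25, with migratory male y60 the lowest. The males taken on the same days as the females were y53, the highest at 8.25, and y61 at -9.14. Sex overlapped with day and hour of collection, and their part in this component was not tested. On the second component (16.8%) the sexes overlapped, with females from 2.53 to 15.0 and males from -28.3 to 11.4.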

How the data were processed

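Per the labels, total RNA of each bird was made into libraries with a TruSeq RNA kit, which does not mark strand. Of tools, the submitters' processing notes list HTSeq, TopHat2 and Trim Galore 0.3.1, with no roles; genome build and annotation: not given in the sources used here. What the authors deposited is 1 table of values on a log scale, taken as log2, which its name describes as exon counts after TMM (trimmed mean of M values) normalization. The columns hold nearly the same sorted values, as quantile normalization leaves them, so depth is lost and no counting error is given. No pseudocount applied.

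Differences come from limma 3.58.1 in R 4.3.3, with the mean-variance trend and robust settings, on the 10 coastal birds with migration status as covariate; p-values are two-sided and adjusted over 11727 genes by the Benjamini-Hochberg method. Each bird is a separate animal. The mixture gave each gene a Student distribution with its standard error; normal errors, first planned, failed on simulated data and were replaced. Named genes had, in each direction, the smallest p-value and the largest difference among called genes without overlap, and for the interaction the smallest p-values. An exact test with sex permuted within migration status (60 arrangements) gave p = 0.0167 for each gene named for sex. That is the smallest p the arrangements allow, and the choice of genes without overlap favours it. The birds, which the labels define, and the lists were chosen with earlier results of these data known. Gene lists of Z genes, sex steroid signalling and cell type markers could not be matched to identifiers and have no result. Other settings are given at the end.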

Additional observations from a re-analysis of the deposited data

How the results depend on the processing

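The direction of the 4 named genes was kept under each alternative run that held them. Their calls were lost only in August birds alone (adjusted p by limma from 0.0558 to 0.183) and, for ENSFALG00000002220, in October birds alone. The run without the lowest of 4 parts by mean level held only ENSFALG00000007348 of them. ENSFALG00000002220, ENSFALG00000008864 and ENSFALG00000014137 lie in that lowest part and were not tested there. Leaving out 1 coastal bird at a time called 2.19% to 3.06% of genes (2.09% to 2.78% lower and 0.102% to 0.35% higher), with a median of the lower genes from -0.88 to -0.82 log2, a mixture centre from -0.97 to -0.89 log2 and a lower class of 126 to 241 genes. The interaction had 0 calls in all 9 such fits, without trend and robust settings and with all 19 birds; it cannot be fitted without y64. With the day added 1.71% of genes were called (1.61% lower, 0.0938% higher) and the median was -0.90 log2, over fewer genes. Non-migratory birds alone called 1.68% (1.59% lower, 0.0853% higher) with a median of -0.89 log2, and August birds alone 0 genes (0 lower, 0 higher) with a mixture centre of -0.88 log2; both hold fewer birds. October birds alone gave 0.478% of genes higher, a median of -0.94 log2, a mixture centre of -0.81 log2 and a lower class of 440 genes. All 19 birds gave 0.563% of genes higher. Adding the month, which sets y57 aside, gave 0.128% of genes higher and a centre of -0.89 log2. Natural logs would give a median of -1.18 and a centre of -1.35 log2. With 2 classes the centre was -0.66 log2 with 557 genes, and with the more precise 50% of genes the class held 92.0 genes. The median was -0.75 log2 in y66 over genes called without this bird, and -0.74 log2 in y66 against the male of the same day. The cause of these shifts was not tested where none is named. The same-day values, the more precise genes and the change of error model in the mixture were chosen after seeing the data. Normal errors put the centre at -0.93 log2 as well. The count of lower genes was 244 in October birds and between 269 and 383 under the settings of covariate, rescaling, filter and moderation not named above. Depth is unknown, so no limit from counting can be given.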

Other observations

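The genes called lower in females were unevenly spread over the file's list of identifiers, which run in ascending order. Of 117 blocks of 100 successive identifiers, 39 held no called lower gene and the median block held 1, whereas the fullest blocks held 20 and 19. The 29 blocks with 5 or more (24.8% of blocks) held 247 of the 341 genes (72.4%). These blocks were picked by their own count, so an excess over 24.8% was fixed in advance. The share that random placement would give was not worked out. The identifier directly after a called lower gene was itself called lower in 6.45% of cases, against 2.91% of all genes. Whether successive identifiers are neighbours on a chromosome is not given in the sources used here, and this was noticed after the values were seen.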
